A study of Mus musculus with 96 samples.

Results

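The mitochondrial fatty acid oxidation genes are 32 genes listed by symbol for their known function, with no threshold on their measured values, and grouped here by the step they serve. The list was chosen with earlier results of these data known, so shares of members set beside all genes are descriptive. All 32 were found in the files of both tissues, among 20940 genes in gastrocnemius muscle and 22632 in sciatic nerve, and all 32 passed the filter on low values and were tested. Male C57BL/6J mice started their diets at 12 weeks of age and both tissues were taken at 26 weeks. The regimens were KDI_EX (high-fat diet, then from 18 weeks a ketogenic diet with a running wheel), EX (high-fat diet throughout, with a wheel from 18 weeks), KDI (high-fat diet, then ketogenic diet from 18 weeks), DR (high-fat diet, then standard diet from 18 weeks), KD (ketogenic diet throughout), HFD (high-fat diet throughout) and SD (standard diet throughout). Fat gave 90% of the energy of the cocoa butter-based ketogenic diet, 60% of that of the lard-based high-fat diet and 10% of that of the standard diet. All groups shared single housing and free access to food, and running was voluntary, so the running groups differ from the others in wheel access and their distance is not used here. Muscle gave 6 KDI_EX, 7 EX, 7 KDI, 7 DR, 7 KD, 7 HFD and 8 SD libraries, and nerve gave 7, 7, 7, 7, 7, 6 and 6 in the same order. Each library was taken as a separate sample. The labels do not tie a library to a mouse, so p-values measure the spread between libraries.

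Fatty acids are burned in mitochondria after they have been joined to coenzyme A by the acyl-CoA synthetases and carried across the inner membrane by the carnitine shuttle. Malonyl-CoA, an intermediate of fatty acid synthesis, blocks the entry step. Inside, beta-oxidation shortens the chain in a repeating cycle of an acyl-CoA dehydrogenase, a hydratase, a hydroxyacyl-CoA dehydrogenase and a thiolase, and the electrons of the first step pass through the electron transfer flavoproteins. Double bonds of unsaturated fatty acids need helper enzymes. Many of these genes are known targets of the fatty acid sensors PPAR-alpha and PPAR-delta, and oxidative slow-twitch muscle fibres are known to hold more of these enzymes than glycolytic fast-twitch fibres.

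Promoter sequences are shown for the genes on which the results turn. They are Acadl and Eci2, the members that passed the test, Slc25a20, the member with the lowest p in HFD against SD and in DR against HFD in muscle, and Hadhb, which starts beside Hadha on the opposite strand. The sequences are from RefSeq (GRCm38.p6), from 250 bases before to 50 after the start, written 5′ to 3′ on the gene's strand, and capitals mark a motif match.
Acadl, minus strand, chr1:66863260-66863559: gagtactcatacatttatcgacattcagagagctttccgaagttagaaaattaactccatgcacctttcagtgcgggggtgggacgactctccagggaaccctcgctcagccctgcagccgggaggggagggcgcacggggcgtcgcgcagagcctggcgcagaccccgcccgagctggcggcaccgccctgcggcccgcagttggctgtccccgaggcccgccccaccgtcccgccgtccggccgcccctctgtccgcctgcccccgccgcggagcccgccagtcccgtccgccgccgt
Eci2, minus strand, chr13:34994095-34994394: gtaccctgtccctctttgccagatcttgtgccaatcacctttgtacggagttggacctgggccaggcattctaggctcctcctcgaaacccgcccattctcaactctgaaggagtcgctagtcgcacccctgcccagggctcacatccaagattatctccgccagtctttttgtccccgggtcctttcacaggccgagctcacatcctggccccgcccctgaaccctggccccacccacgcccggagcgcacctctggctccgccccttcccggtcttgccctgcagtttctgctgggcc
Slc25a20, plus strand, chr9:108661886-108662185: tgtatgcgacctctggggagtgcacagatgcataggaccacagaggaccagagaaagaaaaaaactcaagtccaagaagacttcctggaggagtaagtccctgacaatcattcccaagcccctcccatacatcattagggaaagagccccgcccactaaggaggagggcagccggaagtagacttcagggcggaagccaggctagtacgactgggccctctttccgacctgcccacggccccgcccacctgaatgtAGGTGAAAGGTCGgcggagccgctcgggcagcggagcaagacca
Hadhb, plus strand, chr5:30155003-30155302: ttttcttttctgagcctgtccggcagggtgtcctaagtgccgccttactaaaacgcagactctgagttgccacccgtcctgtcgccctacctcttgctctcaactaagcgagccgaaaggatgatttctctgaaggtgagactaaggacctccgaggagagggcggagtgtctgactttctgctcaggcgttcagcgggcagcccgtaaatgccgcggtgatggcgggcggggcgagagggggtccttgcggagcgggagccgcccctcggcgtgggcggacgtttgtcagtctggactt
The motif searched was the PPAR half-site AGGTCA repeated after 1 base of any kind, with up to 2 mismatches over both copies, on both strands. The table held 30 promoters of 27 members, and 3 of these promoters (Slc25a20, Etfa and Echs1) had a match, 10.0% of the 30, against 3.86% of all 32851 promoters of the same length. In Slc25a20 the match starts 6 bases after the start site, on the plus strand. The RefSeq start of Eci2 lies inside its GENCODE gene model, which begins further upstream. Neither the Acadl nor the Eci2 promoter has these letters in this window. The Hadha promoter, chr5:30154931-30155230 on the minus strand, overlaps the Hadhb sequence printed above.

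The values are deposited log2 expression values. The transform is not stated and the sequencing depth is unknown, so no counting error can be given, and a fold change of a low gene may be understated. The tissues were checked by their defining genes. Acta1, skeletal muscle actin, lay between 19.06 and 19.76 in muscle libraries, and Mbp, a myelin protein gene, between 18.01 and 18.94 in nerve libraries. Some nerve libraries carried muscle or fat genes, with Acta1 up to 14.27 and the adipocyte hormone gene Adipoq between 11.87 and 14.67. The highest scores for 18 skeletal muscle markers in nerve were 4.19 in EX replicate 5 and 4.18 in KDI_EX replicate 7. Without these 2 nerve libraries and 2 muscle libraries that earlier results had set apart (DR replicate 1 and KDI_EX replicate 6), none of the 22 counts of called members below changed.

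In muscle, per kilobase of the longest coding transcript and averaged over the 7 groups, Hadhb and Ech1 had the highest levels of the 32 members, at 13.32 and 13.20 on the log2 scale. Hadhb encodes the beta subunit of the trifunctional protein, which carries out the later steps on long chains, and Ech1 encodes an isomerase for unsaturated chains. The muscle form of the entry enzyme, Cpt1b, stood at 11.66 per kilobase, the liver form Cpt1a at 7.73 and the brain form Cpt1c at 4.69, the lowest of the 32. In nerve the order of these forms differed, with Cpt1a at 9.91, Cpt1c at 7.15 and Cpt1b at 5.22 per kilobase. Ech1 and Etfb, a subunit of the electron transfer flavoprotein, led in nerve at 12.26 and 12.23 per kilobase. The values per kilobase assume that the deposited values were not already corrected for transcript length, which is not stated. Without division by length Hadhb still led in muscle at 14.36, but the synthetase gene Acsl1 led in nerve at 12.9. The tissues were transformed separately, so levels are ranked only within a tissue.

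A ketogenic diet throughout, set against the standard diet, asks what lasting carbohydrate restriction with high fat does to this pathway. In muscle, Acadl and Eci2 rose on KD. Acadl, the long-chain acyl-CoA dehydrogenase (chr1:66830839-66863277, GRCm38, GENCODE M21), had a lowest, median and highest value of 13.60, 13.81 and 14.08 in the 7 KD libraries, against 13.07, 13.26 and 13.57 in the 8 SD libraries. The groups did not overlap. The difference was 0.55 ± 0.12 (SE, log2), 1.46-fold, with an adjusted p of 0.0287 by limma over all genes tested. Eci2, an enoyl-CoA isomerase that moves double bonds in mitochondria and peroxisomes (chr13:34977748-35027096), had 11.49, 11.65 and 11.89 in KD and 11.18, 11.30 and 11.43 in SD. All KD libraries were above all SD libraries here too, and the difference was 0.37 ± 0.08, 1.29-fold, adjusted p 0.0319. The near relative Eci3, whose reads could be confused with those of Eci2, was at most 2.94 in muscle. Both calls are near the threshold: with each of the 15 libraries left out in turn, the adjusted p of Acadl ran from 0.0233 to 0.0968 and that of Eci2 from 0.0278 to 0.121, and each lost its call in 8 of the 15 fits.

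By adjusted p, 2 of 32 members were called in KD against SD, beside 0.197% of all 15748 genes tested. At an unadjusted p under 0.05 there were 10 members, 9 higher and 1 lower (31.2% of the members), beside 10.2% of all genes. Differences were positive for 27 of 32 members with a median of 0.13, against -0.01 over all genes. Members varied together within groups (median r over pairs 0.53 in muscle and 0.62 in nerve). Counts of members, here and below, are therefore not counts of independent observations. The carnitine shuttle had 7 positive differences of 7, among them Slc25a20, the carnitine-acylcarnitine carrier, at 0.34 ± 0.10 (adjusted p 0.172). All 4 helpers for unsaturated fatty acids were positive, with Ech1 at 0.48 ± 0.16 (adjusted p 0.271) and Decr1, the dienoyl-CoA reductase, at 0.38 ± 0.13 (adjusted p 0.295), and Eci2 alone of the 4 called. Mlycd, which breaks down malonyl-CoA, had 0.33 ± 0.09 (adjusted p 0.125). Among the acyl-CoA dehydrogenases, Acad11, which acts on very long chains, had the opposite sign at -0.25 ± 0.10 (adjusted p 0.434), while Acadm, the medium-chain enzyme, had 0.06. The 5 acyl-CoA synthetases had a median of 0.08.

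Genes beside the pathway gave mixed values in the same comparison. Of 16 other PPAR targets tested, 2 were called: Acot1, a thioesterase that splits acyl-CoA, at 1.31 ± 0.26 (adjusted p 0.00869), and the fatty acid uptake gene Slc27a1 at 0.50 ± 0.11 (adjusted p 0.0261). Acot1 is nearly identical to Acot2, so its value is uncertain. Ucp3, an inner membrane carrier, had -0.16 ± 0.12 (adjusted p 0.618), Pdk4, a kinase that blocks pyruvate use, -0.15 ± 0.18 (0.763), and Angptl4, an inhibitor of lipoprotein lipase, 0.18 ± 0.21 (0.754). No gene was called among 16 peroxisomal beta-oxidation genes (4 positive, median -0.05), 18 TCA cycle genes (1 positive, median -0.12), 25 nuclear respiratory chain genes (13 positive, median 0.00) or 16 regulators of fatty acid oxidation (2 positive, median -0.09). All 12 macrophage markers had positive differences (median 0.23), with summed levels of 109.3 to 120.2 in KD and 108 to 127.4 in SD and none of the 12 at 0. Their part in the result was not tested.

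**Figure D1:**
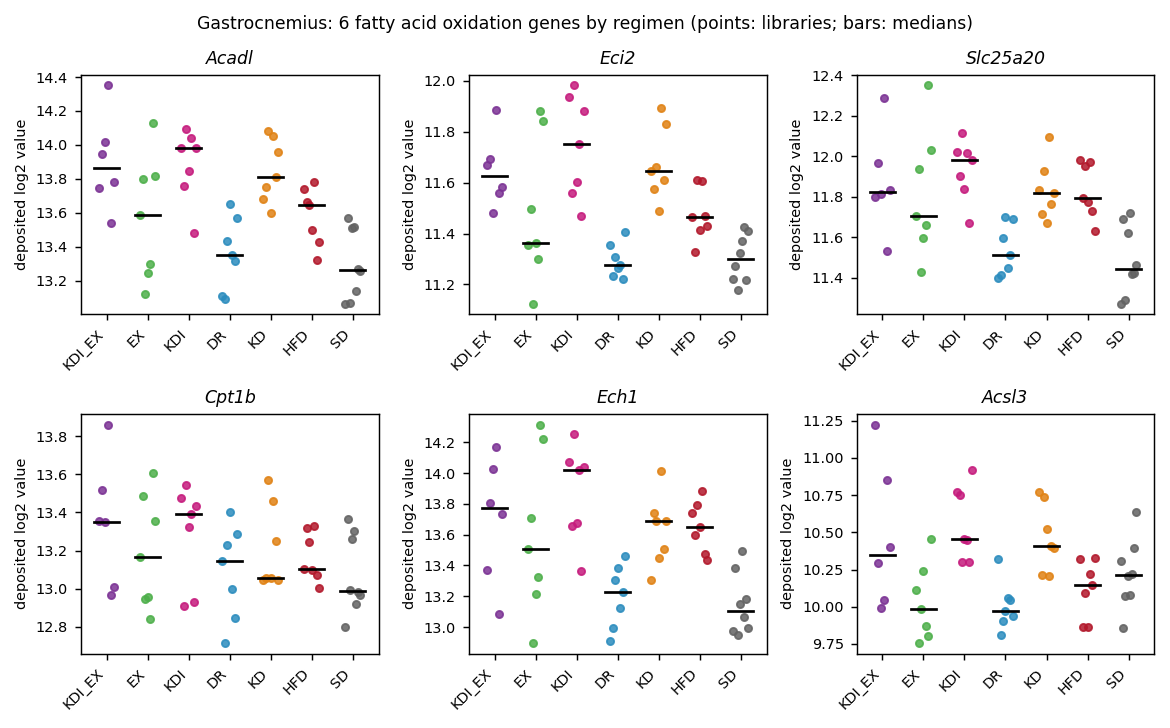
Deposited log2 values of 6 members in gastrocnemius by regimen, each point a library and each bar the group median. KD lies above SD without overlap for Acadl and Eci2, and KDI lies above DR without overlap for Eci2.

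KDI against DR sets the ketogenic against the standard diet after both groups had eaten the high-fat diet until 18 weeks. Eci2 rose in KDI. It had 11.47, 11.75 and 11.98 in the 7 KDI libraries and 11.22, 11.28 and 11.41 in the 7 DR libraries. The lowest KDI library was above the highest DR library, and the difference was 0.44 ± 0.09, 1.36-fold, adjusted p 0.0121. This was 1 of 32 members called, beside 0.0508% of all genes. Without KDI replicate 3 the adjusted p was 0.0633, and with the other libraries left out in turn the call held.

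At an unadjusted p under 0.05 there were 13 members in KDI against DR, all higher (40.6% of the members), beside 7.45% of all genes. Differences were positive for 29 of 32 members with a median of 0.21, against -0.01 over all genes. Ech1 had the largest, 0.67 ± 0.16 (adjusted p 0.105), from 13.37, 14.02 and 14.25 in KDI and 12.91, 13.23 and 13.46 in DR. The ranges overlapped, since the lowest KDI library was below the highest DR library. Acsl3, a synthetase of the endoplasmic reticulum and lipid droplets, had 10.30, 10.46 and 10.92 in KDI and 9.81, 9.97 and 10.32 in DR, a difference of 0.56 ± 0.14 (adjusted p 0.116). Acadl had 13.48, 13.98 and 14.10 in KDI and 13.09, 13.35 and 13.65 in DR, a difference of 0.52 ± 0.13 (adjusted p 0.105). Slc25a20 had 11.67, 11.98 and 12.11 in KDI and 11.40, 11.51 and 11.70 in DR, a difference of 0.40 ± 0.10 (adjusted p 0.142). In each of these genes all 7 KDI libraries were above the DR mean, but the ranges overlapped. Of the 7 roles, the helpers for unsaturated fatty acids had the highest median, 0.47 over 4 genes, and the trifunctional protein with the later steps had 0.29 over 5 genes.

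Outside the pathway, Acot1 and Slc27a1 were called in KDI against DR as well, at 1.42 ± 0.27 (adjusted p 0.0113) and 0.59 ± 0.11 (adjusted p 0.0121). They were 2 of 16 other PPAR targets tested, of which 13 had positive differences with a median of 0.44. The 16 peroxisomal genes had a median of 0.05 and none was called. Ucp3 had -0.18 ± 0.12, Pdk4 -0.23 ± 0.18 and Angptl4 0.31 ± 0.21, none called. Markers of other cells differed alongside: 18 of 20 adipocyte markers and 12 of 12 macrophage markers were positive, with medians of 0.42 and 0.37. Summed levels were 194 to 214.5 in KDI and 188.3 to 206.6 in DR for adipocyte markers and 111.8 to 120.8 in KDI and 99.69 to 121.7 in DR for macrophage markers, with no marker at 0. With adipocyte and myelin scores as covariates Eci2 had 0.42 (adjusted p 0.0632) and no member was called. Fitted on KDI and DR alone, it had 0.44 (adjusted p 0.102). The part of the macrophage markers was not tested.

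In high-fat diet throughout against standard diet most members had positive differences in muscle, but none of 32 was called, beside 0.0191% of all genes. By limma at an unadjusted p under 0.05 there were 9 members, all higher (28.1%), beside 8.68% of all genes. Slc25a20 had 11.63, 11.79 and 11.98 in HFD and 11.27, 11.44 and 11.72 in SD. All 7 HFD libraries were above the SD mean, and the difference was 0.35 ± 0.10 (adjusted p 0.218). Ech1 had 13.44, 13.65 and 13.88 in HFD and 12.95, 13.11 and 13.50 in SD, a difference of 0.50 ± 0.16 (adjusted p 0.28). Decr1 had 12.57, 12.72 and 12.91 in HFD and 12.27, 12.34 and 12.56 in SD, ranges that did not overlap, with a difference of 0.35 ± 0.13 (adjusted p 0.393). Differences were positive for 25 of 32 members, with a median of 0.18 against 0.00 over all genes, and for all 5 genes of the trifunctional protein and later steps (median 0.21). Ucp3 fell to 12.28, 12.50 and 12.71 in HFD, against 12.62, 13.13 and 13.68 in SD, by 0.61 ± 0.12 on the log2 scale (adjusted p 0.0367). Pdk4 had -0.60 ± 0.18 (adjusted p 0.24) and Angptl4 0.17 ± 0.21 (adjusted p 0.795).

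The return to standard diet asks whether these levels come back. In DR against HFD no member was called, beside 0.0254% of all genes, and 4 members had an unadjusted p under 0.05, all lower (12.5%), beside 5.04% of all genes. These were Slc25a20 at -0.30 ± 0.10 (adjusted p 0.665), Ech1 at -0.45 ± 0.16 (0.735), Decr1 at -0.32 ± 0.13 (0.875) and Eci2 at -0.18 ± 0.09 (0.985). For each of them all 7 DR libraries were below the HFD mean. Differences were positive for 4 of 32 members, with a median of -0.15 against 0.01 over all genes. Because HFD against SD and DR against HFD share the HFD libraries, no relation between them is drawn. No gene was called among 16 other PPAR targets (3 positive, median -0.22), with Ucp3 at 0.51 ± 0.12 (adjusted p 0.256), Pdk4 at 0.47 ± 0.18 (0.826) and Angptl4 at -0.17 ± 0.21 (0.985). None of 12 macrophage markers was positive (median -0.26).

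Slow fibre genes were higher in level on the high-fat diet in muscle, beside these members, without a call. In HFD against SD all 12 slow fibre contractile markers had positive differences, with a median of 0.77. Their mean centred score was 0.43 ± 0.69 in HFD and -0.32 ± 0.85 in SD (SD, n = 7 and 8). Summed levels were 141.3 to 163.2 in HFD and 130.9 to 164.9 in SD, and none of the 12 was at 0. In bulk muscle a larger share of slow fibres and more RNA of these genes per fibre cannot be told apart. With the score as a covariate, the median of the 32 members in HFD against SD was 0.06, with 26 positive and 3 at an unadjusted p under 0.05. Ech1 then had 0.30, against 0.50 without the covariate, and Acaa2, the last enzyme of the cycle, 0.16, against 0.37.

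KD against SD and KDI against DR kept their size with the same covariate. DR against HFD also stayed close to its median given above, at -0.13 with 4 of 32 members positive. In that comparison 8 members were lower at an unadjusted limma p under 0.05, beside 5.7% of all genes, and none was called, beside 0.0127%. The slow fibre score was -0.47 ± 0.70 in KD and -0.32 ± 0.85 in SD, and 0.08 ± 0.97 in KDI and 0.29 ± 0.75 in DR, and 1 of 12 markers was positive in either comparison. With the score in the fit, 6 members were called as higher in KD against SD, beside 0.432% of all genes. Acadl had 0.57 ± 0.09 (adjusted p 0.000218), Eci2 0.38 ± 0.07 (0.00401) and Ech1 0.52 ± 0.10 (0.00492). Decr1 (0.40), Slc25a20 (0.36) and Mlycd (0.34) were the others called. In KDI against DR, 6 members were called as higher with the score, beside 0.203% of all genes: Ech1 (0.72), Acadl (0.56), Decr1 (0.54), Acsl3 (0.53), Eci2 (0.46) and Slc25a20 (0.42). This fit is an alternative, not the test the calls above rest on.

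**Figure D2:**
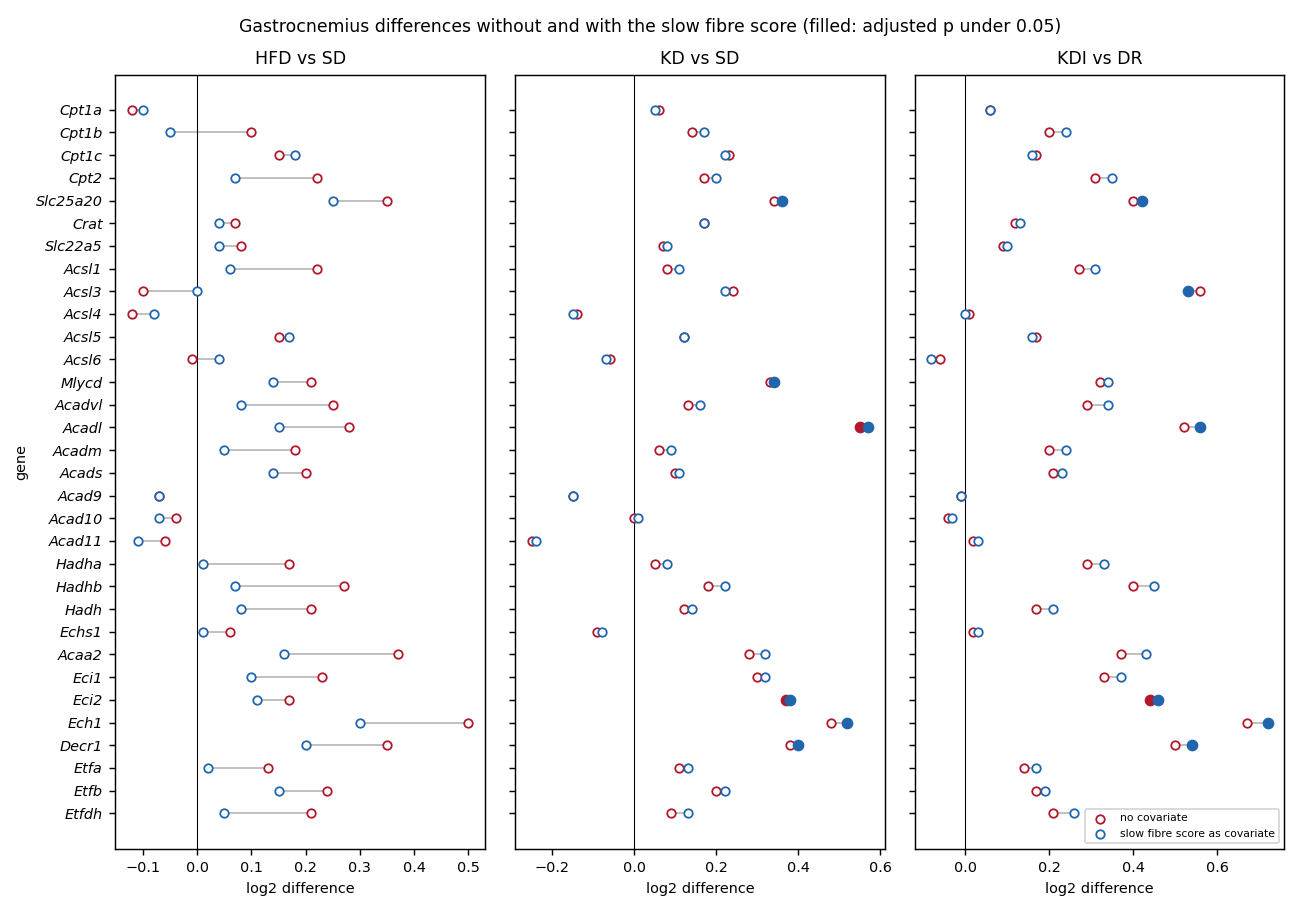
Log2 differences of the 32 members in gastrocnemius for HFD vs SD, KD vs SD and KDI vs DR, without (red) and with (blue) the slow fibre score as covariate, filled where the adjusted p is under 0.05. In HFD vs SD most points move toward 0 (median 0.18 without and 0.06 with the score), while in KD vs SD and KDI vs DR they stay close to their first position.

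Across the 49 muscle libraries the members followed the slow fibre score within groups. For deviations from the group means, 26 of 32 members had a positive Pearson's r with the score, with a median of 0.55, and 22 positive and 1 negative passed a permutation test at an adjusted p under 0.05 (162 relations in all, 100000 permutations, two-sided). Acaa2 had the highest, r = 0.79 and Spearman's rho = 0.80 (both p = 1e-05, the smallest the permutations can give; adjusted 3e-05 and 3.6e-05), and r = 0.76 without the 2 libraries farthest from the median score. Acadl had r = 0.67 (rho = 0.65, 0.63 without the 2 farthest) and Eci2 r = 0.48 (rho = 0.47, again 0.48 without the 2 farthest), with adjusted permutation p of 3e-05 and 0.00322. The negative one was Acsl3, with r = -0.47 and rho = -0.44 (adjusted permutation p 0.00858 and 0.0107), and -0.49 without the 2 farthest. Cpt1a, at r = -0.11 (adjusted permutation p 0.513), did not pass. The libraries share a normalization, which was not tested as a source of these relations. How many other genes follow the slow fibre score was not examined, so the counts cannot be called particular to the members.

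KD against HFD, the ketogenic against the lard-based diet, called no member in muscle, beside 0.318% of all genes. By limma 3 members had an unadjusted p under 0.05, all higher (9.38%), beside 5.89% of all genes: Acsl3 at 0.35 ± 0.14 (adjusted p 0.595), Eci2 at 0.20 ± 0.09 (0.706) and Acadl at 0.26 ± 0.13 (0.818). All 7 KD libraries were above the HFD mean for each of the 3. Differences were positive for 11 of 32 members, with a median of -0.03 against 0.00 over all genes. None of the 12 slow fibre markers was positive (median -0.90), with summed levels of 129.8 to 154.1 in KD and 141.3 to 163.2 in HFD. With the slow fibre score as covariate 25 of 32 members were positive (median 0.08) and Acadl was called, at 0.43 ± 0.10 (adjusted p 0.0391), beside 0.337% of all genes. Of the 20 adipocyte markers, 4 were positive (median -0.41), with a score of -0.30 ± 0.25 in KD and 0.24 ± 0.46 in HFD (SD, n = 7 each), and the adipocyte hormone gene Lep was called lower at -2.50 ± 0.49 (adjusted p 0.00738). With adipocyte and myelin scores as covariates 8 of 32 members were positive (median -0.05) and none was called, so the sign of the median depends on the covariate. Ucp3 had 0.45 ± 0.12 (adjusted p 0.109), Pdk4 0.45 ± 0.18 (0.604) and Angptl4 0.01 ± 0.21 (0.997).

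The switch to a ketogenic diet, KDI against HFD, called no member either, beside 0.0318% of all genes. By limma 4 members had an unadjusted p under 0.05, all higher (12.5%), beside 2.62% of all genes. They were Acsl3 at 0.45 ± 0.14, Eci2 at 0.27 ± 0.09, Acadl at 0.30 ± 0.13 and Mlycd at 0.21 ± 0.09, with adjusted p values that round to 1. Acsl3 had 10.30, 10.46 and 10.92 in KDI and 9.86, 10.14 and 10.33 in HFD, so that the ranges overlapped only at their ends. Differences were positive for 28 of 32 members with a median of 0.07, against 0.00 over all genes. Of 16 other PPAR targets, 13 were positive with a median of 0.18 and none was called. Ucp3 had 0.33 ± 0.12, Pdk4 0.24 ± 0.18 and Angptl4 0.14 ± 0.21. None of the 12 slow fibre markers was positive (median -0.33), and with that score as covariate 31 of 32 members were positive (median 0.13) and none was called.

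Running wheels were not followed by a called member in muscle. In EX against HFD none of 32 was called by limma and none had an unadjusted p under 0.05, beside 0% and 2.02% of all genes, and the median difference was 0.03. The 95% interval of the difference was -0.26 to 0.24 for Acadl, -0.17 to 0.18 for Eci2, -0.22 to 0.19 for Slc25a20 and -0.23 to 0.29 for Cpt1b. In KDI_EX against KDI none was called and none had an unadjusted p under 0.05, beside 0% and 4.72% of all genes, with a median of -0.06 and an interval of -0.25 to 0.28 for Acadl. The wheel's effect on ketogenic diet minus its effect on high-fat diet had no called member and none at an unadjusted p under 0.05, beside 0% and 3.31% of all genes, with a median of -0.09 and 0.02 ± 0.18 for Acadl. Ucp3, Pdk4 and Angptl4 had 0.05, 0.06 and -0.13 in EX against HFD and -0.03, 0.02 and -0.23 in KDI_EX against KDI, none called. EX libraries were spread widely, from 12.90 to 14.31 in Ech1 and from 13.12 to 14.13 in Acadl.

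With diet and wheel combined, KDI_EX against HFD called no member, beside 0.108% of all genes. At an unadjusted p under 0.05 limma gave 2 members, both higher (6.25%), a share near the 6.67% of all genes. They were Acsl3 at 0.35 ± 0.14 (adjusted p 0.606) and Acadl at 0.31 ± 0.13 (adjusted p 0.618). Among runners, KDI_EX against EX called none, beside 0.0635% of all genes, and 4 members had an unadjusted p under 0.05 (12.5%), beside 6.96% of all genes. Acsl3 at 0.44 ± 0.14 (adjusted p 0.39), Mlycd at 0.24 ± 0.10 (0.54) and Acadl at 0.33 ± 0.13 (0.57) were positive, and Echs1, a short-chain hydratase, was at -0.17 ± 0.08 (0.708). Ucp3, Pdk4 and Angptl4 had 0.30, 0.26 and -0.09 in KDI_EX against HFD and 0.26, 0.20 and 0.04 in KDI_EX against EX, none called. Adipocyte markers differed alongside in these groups: 4 of 20 were positive in KDI_EX against HFD, with summed levels of 184 to 212.2 in KDI_EX and 186.9 to 214.3 in HFD, and Lep was called lower at -2.53 ± 0.52 (adjusted p 0.0219). With adipocyte and myelin scores as covariates, 15 of 32 members were positive in KDI_EX against HFD (median 0.00, 2 at an unadjusted p under 0.05) and 18 in KDI_EX against EX (median 0.01, 1 at an unadjusted p under 0.05), none called. In the same fit Acadl had 0.25 ± 0.14 in KDI_EX against HFD and 0.24 ± 0.15 in KDI_EX against EX.

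Acadl levels in muscle by group averaged 13.90 ± 0.28 in KDI_EX, 13.57 ± 0.37 in EX, 13.88 ± 0.21 in KDI, 13.36 ± 0.21 in DR, 13.85 ± 0.19 in KD, 13.58 ± 0.17 in HFD and 13.30 ± 0.21 in SD (SD of libraries). The 3 ketogenic groups were highest, HFD and EX lay between, and DR and SD were lowest. KDI_EX, KDI and KD differed by less than their spread, as did HFD and EX, and DR and SD. Cpt1b, the muscle entry enzyme, had group medians of 13.35 in KDI_EX, 13.17 in EX, 13.39 in KDI, 13.15 in DR, 13.06 in KD, 13.10 in HFD and 12.99 in SD, and all 7 ranges overlapped. Cpt1a had medians of 9.92, 9.88, 9.89, 9.85, 9.85, 9.62 and 9.79 in the same order, also with overlapping ranges, and Hadha, the alpha subunit of the trifunctional protein, 13.68, 13.90, 14.01, 13.63, 13.56, 13.77 and 13.59. The 95% intervals of KD against SD were -0.16 to 0.27 for Cpt1a, -0.11 to 0.39 for Cpt1b and -0.28 to 0.38 for Hadha. None of the 3 was called in any comparison of muscle.

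In sciatic nerve no member was called in any of the 11 comparisons of the fit without covariates, and the differences were small. Medians over the 32 members lay between -0.01 and 0.09 in the 11 comparisons. For Acadl the ranges overlapped, though KD reached higher, with 11.72, 11.89 and 12.23 in KD and 11.66, 11.85 and 11.98 in SD. The difference was 0.08 with an interval of -0.12 to 0.27. For Eci2 the values were 11.33, 11.42 and 11.46 in KD and 11.29, 11.35 and 11.44 in SD, a difference of 0.04 with an interval of -0.04 to 0.13. That interval is narrow, and the KD against SD differences seen for Acadl and Eci2 in muscle lie above both nerve intervals, but the difference between tissues was not tested, since they were transformed separately. Median levels of Slc25a20 were 10.18 in KD and 10.21 in SD, and those of Hadha 12.49 in KD and 12.36 in SD, with overlapping ranges.

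In the fit without covariates, shares of members at an unadjusted p under 0.05 in nerve were below those of all genes in 10 of the 11 comparisons. In HFD against SD it was 1 member (3.12%), beside 18.2% of all genes, with 0% called. In KD against SD it was 1 (3.12%) beside 5.28%, with 0.00581% called. In KD against HFD it was 0 beside 5.63%, with 0.0348% called. The single member in both SD comparisons was Acsl6, a synthetase known from nervous tissue, at 0.20 ± 0.09 in HFD (adjusted p 0.251) and 0.27 ± 0.09 in KD (adjusted p 0.822), comparisons that share the SD libraries. In DR against HFD it was 1 (3.12%, Eci2 at 0.08 ± 0.04) beside 7.38%, with 0% called, and in KDI against HFD 1 (3.12%, Acsl3 at 0.16 ± 0.08) beside 4.27%, with 0.0232% called. In EX against HFD it was 1 (3.12%) beside 7.17%, with 0% called. The member in EX was Cpt1c, the brain form of the entry enzyme, at 0.18 ± 0.08 (adjusted p 0.677). In KDI_EX against HFD it was 3 (9.38%) beside 5.72%, with 0.0697% called. In KDI_EX against KDI it was 0 beside 4.65%, with 0% called. The 3 members in KDI_EX against HFD were Eci1 (0.25 ± 0.11), Echs1 (0.18 ± 0.07) and Acsl4 (0.19 ± 0.09), with adjusted p of 0.801, 0.742 and 0.865. In KDI_EX against EX it was 1 (3.12%, Acaa2 at 0.12 ± 0.06) beside 5.8%, with 0.0581% called, and in KDI against DR 0 beside 5.43%, with 0.00581% called. The difference of the wheel's effects had 0 beside 2.1%, with 0% called. All of these tests were by limma and two-sided. Ucp3 lay between -0.17 and 0.28, Pdk4 between -0.25 and 0.22 and Angptl4 between -0.40 and 0.00 over the 11 comparisons, none called.

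**Figure D3:**
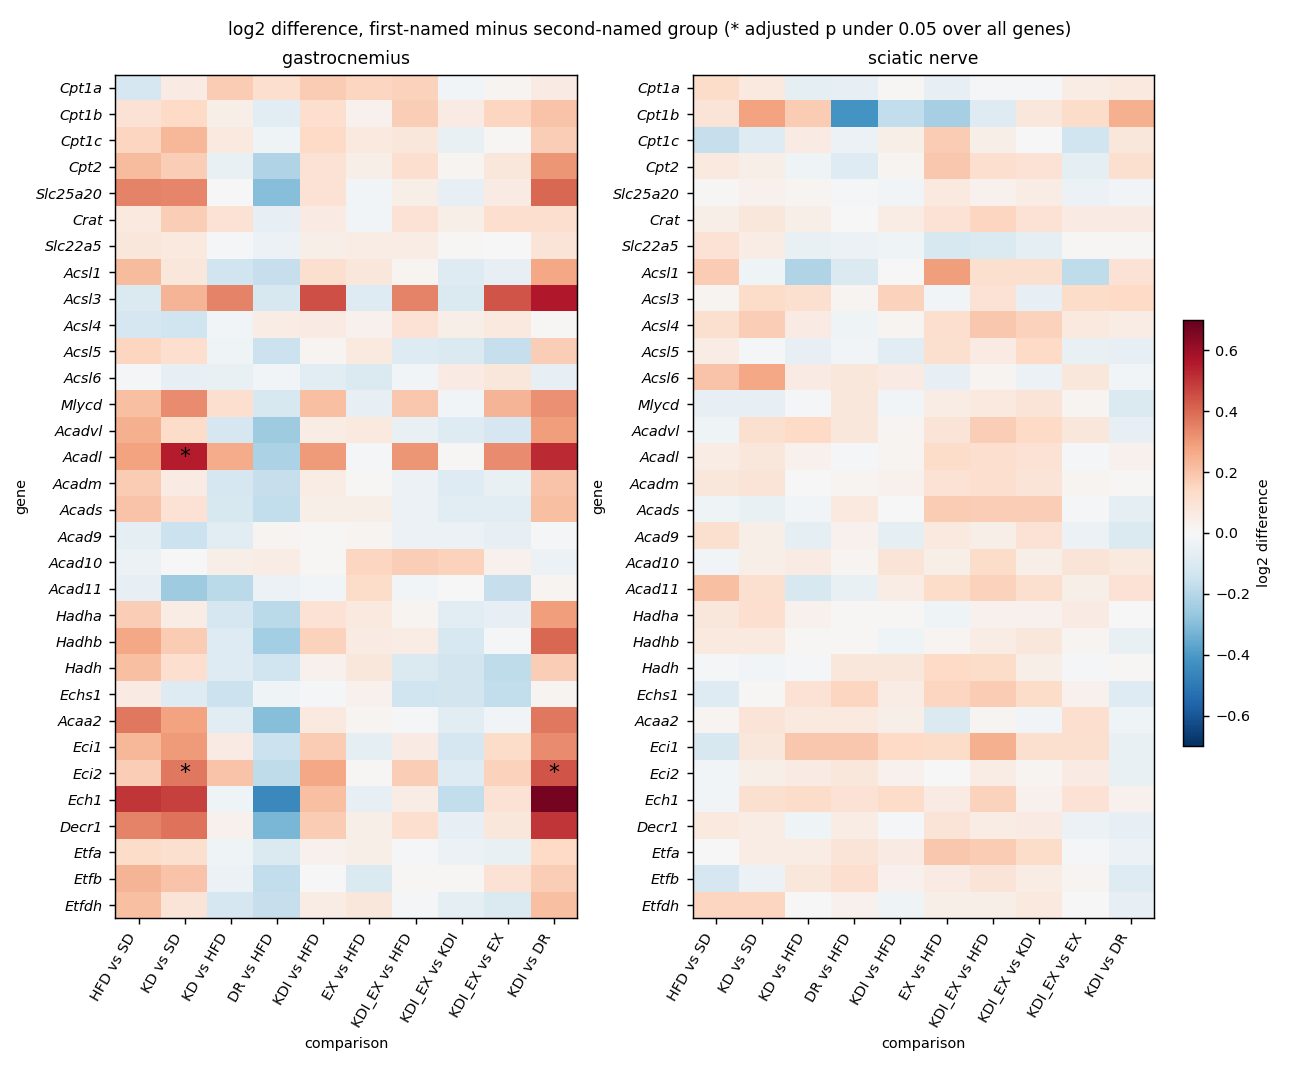
Log2 difference of the 32 members in 10 comparisons, first-named minus second-named group, in gastrocnemius (left) and sciatic nerve (right), with an asterisk at an adjusted p under 0.05. The 3 asterisks are Acadl and Eci2 in KD vs SD and Eci2 in KDI vs DR, all in muscle.

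Levels in nerve varied with the fat markers of the library. Within groups, 30 of 32 members had a positive r with the adipocyte marker score over 47 libraries, with a median of 0.76, and 28 passed the permutation test as positive and 2 as negative at an adjusted p under 0.05. Cpt2, the inner membrane partner of the shuttle, and Etfa, a subunit of the electron transfer flavoprotein, both had r = 0.93 (rho = 0.93 for each, p = 1e-05, adjusted 3e-05 for r and 3.6e-05 for rho), and 0.92 and 0.90 without the 2 libraries farthest from the median score. The negative ones were Acsl3, r = -0.72 (rho = -0.75, -0.69 without the 2 farthest), and Cpt1c, r = -0.61 (rho = -0.54, -0.52 without the 2 farthest), with adjusted permutation p of 3e-05 and 0.000127. With the myelin score, 30 of 32 members had a negative r, with a median of -0.67. Fat, myelin and muscle RNA share each library's total, so these relations are not independent of each other. How many other genes follow these scores was not examined, so the counts cannot be called particular to the members. All 20 adipocyte markers were positive in EX against HFD (median 0.48), with summed levels of 233.5 to 250 in EX and 216.4 to 243.9 in HFD. Of the 20, 16 were positive in KDI_EX against HFD (median 0.23), where Cfd, an adipocyte complement factor, was called at 1.40 ± 0.30 (adjusted p 0.0424). No marker of the list was at 0.

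Cpt1b showed the largest spread in nerve. Its group medians were between 6.37 in DR and 6.93 in KD, while single libraries reached 8.75 in KDI_EX, 8.58 in EX and 8.48 in KD. Within groups, 30 of 32 members had a positive r with the skeletal muscle marker score (median 0.50), and 26 passed the permutation test as positive and 2 as negative at an adjusted p under 0.05. Here too, genes other than the members were not examined. Cpt1b had the highest r, 0.82 (rho = 0.68, 0.72 without the 2 farthest libraries, adjusted permutation p 3e-05 and 6.61e-05), followed by Mlycd, 0.76 (rho = 0.71, 0.69 without the 2 farthest), and Crat, a carnitine acetyltransferase, 0.71 (rho = 0.58, 0.59 without the 2 farthest), both with an adjusted permutation p of 3e-05. Cpt1a, the main form in nerve per kilobase, varied little, with group medians between 11.94 in SD and 12.18 in KDI_EX. With adipocyte and skeletal muscle scores as covariates in nerve, 1 member was called in HFD against SD (Acad11, higher, beside 4.07% of all genes), 1 in DR against HFD (Cpt2, lower, beside 1.18%) and none in the other 9 comparisons. At an unadjusted limma p under 0.05, that fit had 14 members in KD against SD, all higher, beside 9.43% of all genes. KDI_EX against KDI had 11, all higher, beside 9.26%, and HFD against SD 10 higher and 1 lower, beside 25.8%. The remaining comparisons had at most 6 higher and at most 4 lower.

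**Figure D4:**
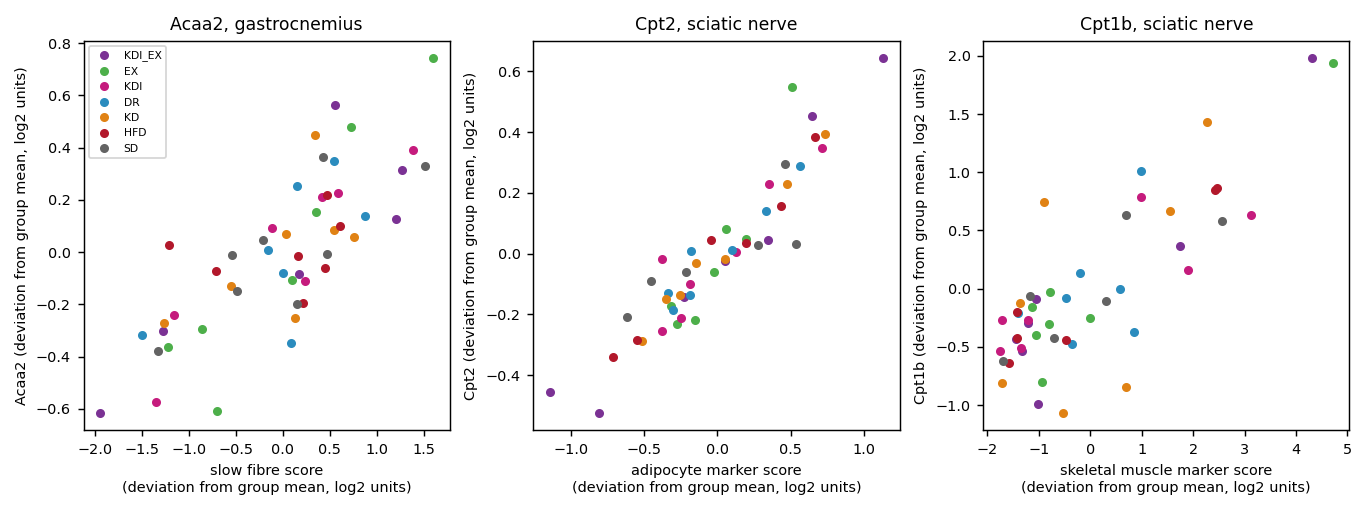
Deviation of each library from its group mean, in log2 units, for Acaa2 against the slow fibre score in gastrocnemius (49 libraries), Cpt2 against the adipocyte marker score in sciatic nerve (47) and Cpt1b against the skeletal muscle marker score in nerve (47), coloured by regimen. Pearson's r is 0.79, 0.93 and 0.82, and the 2 points at the far right of the Cpt1b panel are EX replicate 5 and KDI_EX replicate 7.

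The members also varied together from library to library. Of the 496 pairs of members, 349 had a positive r of their within-group deviations in muscle, with a median of 0.53 over all pairs, and 429 in nerve, with a median of 0.62. Pairs of other genes were not examined, so these values have no background beside them. Hadha and Hadhb, the subunits of the trifunctional protein, whose promoter windows overlap, had r = 0.93 in muscle (rho = 0.92, 0.92 without the 2 farthest libraries) and r = 0.81 in nerve (rho = 0.82, 0.84 without the 2 farthest), each with an adjusted permutation p of 3e-05. In muscle Hadhb had medians of 14.37 in KDI_EX, 14.45 in EX, 14.69 in KDI, 14.12 in DR, 14.28 in KD, 14.34 in HFD and 14.12 in SD, and Hadha followed the same order at the top, with KDI highest and EX next.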

How the data were processed

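RNA from 96 libraries (49 muscle, 47 nerve) was sequenced. Each library has a deposited list of gene symbols with a log2 expression value, made by the authors with a transform that is not stated, and counts were not used here. Per the submitters' processing notes, the build was GRCm38 and the tools were STAR 2.7.8a, RSEM 1.3.3, cutadapt 2.3, MultiQC 1.7, FastQC 0.11.8 and DESeq2, the last named without a version. Their order and settings are not given in the sources used here. The library kit (NEBNext Ultra) is not stated in the labels to mark the strand. Library medians were 6.89 to 7.17 in muscle and 7.46 to 7.66 in nerve. The highest correlation between libraries was 0.999 in muscle and 0.9993 in nerve, and no 2 libraries held identical values.

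Groups came from the treatment labels. Testing was limited to genes that reached 3.32, the log2 of 10, in 6 or more libraries, which left 15748 in muscle and 17226 in nerve. For each tissue a single model over all 7 groups was fitted in limma 3.58.1 with its trend and robust options (R 4.3.3, statmod 1.5.0, and the data.table package, version 1.17.8). From each fit 11 two-sided comparisons were drawn, adjusted by Benjamini-Hochberg over all genes tested and called at 0.05. Scripts were tested on simulated data. Differences are the first-named minus the second-named group with the standard error from limma. Scores are means of centred values over a marker list. Correlations used deviations from group means, with 100000 permutations within groups. Alternatives were no filter, only the groups compared, library quality weights, quantile normalisation, marker or slow fibre scores as covariates, and libraries left out.

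The members, gene lists and tests were chosen with earlier results of these data known. Values by group are given for called members and, whatever their p, for Cpt1a, Cpt1b, Slc25a20, Acadl and Hadha. All members may be named, and Pdk4, Ucp3 and Angptl4 in every comparison. From other lists up to 4 called genes were named. Per-group values of Ech1, Decr1, Acsl3 and Hadhb were added after their values were seen.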

Additional observations from a re-analysis of the deposited data

Results flagged for a closer look

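In 84 groups of libraries (6 members, 14 groups of tissue and regimen), the highest or lowest library was compared with its neighbours, and 3 stood apart. Chance gives about 1 in 20 groups, so this count is no more than chance gives. Cpt1b in nerve was 7.46 in DR replicate 1, with the next library at 6.58. Cpt1b in nerve was 8.58 in EX replicate 5, with the next at 6.61. Acadl in nerve was 12.4 in EX replicate 5, with the next at 12.03. EX replicate 5 also had the highest skeletal muscle marker score of all nerve libraries, 4.19, and the part of these markers in the Cpt1b and Acadl values was not tested library by library.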

How the results depend on the processing

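No paired analysis was possible because nothing in the labels pairs libraries between groups. Members called, muscle: in KD against SD, 6 with the slow fibre score as covariate, beside 0.432% of all genes. It was 3 with library quality weights (Slc25a20 added), beside 1.42%, and 4 when only the groups compared were fitted. The main fit had 2, beside 0.197%, and single libraries left out gave 0 to 3. In KD against HFD, 1 with the slow fibre score, beside 0.337% of all genes. In HFD against SD, 1 (Slc25a20) with library quality weights, beside 1.63% of all genes, against 0.0191% in the main fit. In KDI against DR, against 1 (0.0508% of all genes), it was 3 with quality weights (1.25%) and 6 with the slow fibre score (0.203%). It was 0 with adipocyte and myelin scores (0.0318%), 3 with quantile normalisation and 0 with only the groups compared. With single libraries left out it was 0 to 3 (0 without KDI replicate 3, 3 without KDI replicate 6). Quality weights thus raised the share called over all genes as well as the count of members. For quantile normalisation, for only the groups compared and for libraries left out, the share over all genes is not given here. Those counts of members therefore lack a background. In nerve, HFD against SD gave 3 with quality weights (Acsl6 and Acad9 higher, Etfb lower), beside 22% of all genes. It gave 1 with marker scores (Acad11), beside 4.07%, and 0 to 1 with single libraries left out (Acsl6 without HFD replicate 5). DR against HFD gave 1 with marker scores (Cpt2), beside 1.18% of all genes. EX against HFD gave 1 with quality weights (Cpt1c), beside 4.98% of all genes. The cause was not tested. With single libraries left out, the differences ran from 0.51 to 0.59 for Acadl and from 0.33 to 0.40 for Eci2 in KD against SD, and from 0.40 to 0.49 for Eci2 in KDI against DR. Acadl lost its call without any of SD replicates 1, 3, 6, 7 and 8 or KD replicates 3, 5 and 7, and Eci2 without any of SD replicates 1, 2, 3 and 7 or KD replicates 1, 3, 5 and 7. Eci2 in KDI against DR had 0.44 (adjusted p 0.102) with only the groups compared. No direction of a called member reversed under any setting run, and leaving out the filter or the libraries set apart changed no count. Sequencing depth is unknown, so its effect on low members such as Cpt1b in nerve cannot be given.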
